A study of Mus musculus with 24 samples.

Results

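Tumors from mice that received both the interleukin 27 (IL-27) gene and cabozantinib (IL-27+cabo) were compared with tumors from control mice at the end of the study (EOS). These were 4 of the 24 samples of the series, chosen by their labels: the intratibial tumors of IL-27+cabo mice 16 and 28 and of control mice 13 and 9. The 8 EOS tumors, which also held 2 tumors of mice given IL-27 alone (10 and 12) and 2 of mice given cabo alone (19 and 23), entered a single model, so that the 4 groups shared an estimate of the spread. All mice were male C57/BL6 animals of 8 to 10 weeks, and each tibia had been injected with 100000 TC2Ras-Luc cells, a luciferase-labelled mouse prostate adenocarcinoma line with activated Ras. A plasmid was delivered to muscle by sonoporation, either with IL-27 or, in the cabo and control groups, without it (pORF0). Cabo was given by mouth at 30 mg/kg each day in 15% polyvinylpyrrolidone (PVP) for 2 weeks after implantation, and the IL-27 and control groups received PVP alone. EOS tumors were taken when a mouse reached its ethical endpoint, so cabo had already been stopped. The day of harvest is not given in the sources used here and was set by each animal, so treatment and time of harvest cannot be told apart. Tumors were numbered by mouse and taken as separate animals, and TC2Ras is a single cell line.

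IL-27 is a cytokine of the IL-12 family made of the subunits p28 (Il27) and Ebi3, and its receptor (Il27ra with gp130, Il6st) signals through JAK kinases to STAT factors that switch on interferon-like genes and T-cell programs. Cabozantinib inhibits several receptor tyrosine kinases, among them the VEGF receptors (Kdr, Flt1, Flt4), the hepatocyte growth factor receptor Met, and Axl, Kit, Ret and Flt3, and is used against kidney tumors and has been studied in prostate cancer, also for its effects on bone. Interferons act through STAT complexes and interferon regulatory factors on genes that carry a GAAA repeat in their promoters. Amino acid shortage, oxidant stress and misfolded protein act instead through the kinases of the integrated stress response, whose factor Atf4 raises genes of amino acid uptake and synthesis.

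Each EOS library held between 68077714 and 72996212 counts on genes. Mitochondrial transcripts took 2.94% and 2.99% of the counts in the IL-27+cabo tumors, 2.42% and 2.25% in the controls and between 2.66% and 3.00% in the other tumors, and their part in the results was not tested. Pearson's r of log2 CPM (counts scaled to library size) across genes was between 0.966 and 0.973 within groups and between 0.949 and 0.977 between groups, so tumors of a group were not always the most alike. The labelled cell type was checked against epithelial markers. Epcam was detected in all 8 tumors, at 1.33 to 2.92 CPM, Krt5 was at 0 in all of them, and Krt8 was 267 CPM in IL-27+cabo tumor 16 against 14.6 to 39.3 in the others. Of the defining osteoblast markers, Bglap and Ibsp were at 0 in the 4 tumors compared, and Sp7 and Dmp1 were at 0 to 0.305 and 0 to 0.296 CPM over the 8. The summed level of the osteoblast and osteocyte list, which also holds genes that other cells express, such as Col1a1 and Spp1, was 4162 to 7563 CPM, and that of the osteoclast list 716.2 to 2222 CPM. Hras, whose activated form marks the line, was 20.7 and 21.1 CPM in the IL-27+cabo tumors and 19.2 and 16.95 in the controls.

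With edgeR's quasi-likelihood test over 20026 genes, 0 genes (0%) had a Benjamini-Hochberg adjusted p under 0.05 between IL-27+cabo and control tumors, and the smallest adjusted p was 0.136. Without adjustment 2835 genes (14.2%) had a p under 0.05, 1473 of them higher in IL-27+cabo (7.36% of the genes tested) and 1362 lower (6.8%). DESeq2 on the same tumors tested 30139 genes, low counts included, and gave 792 of them an adjusted p under 0.05. Of these 441 were higher (1.46% of the genes DESeq2 tested) and 351 lower (1.16%). The study's limits for intratibial tumors were p under 0.05 before adjustment together with a difference of 1.5 or more on the log2 scale. With edgeR p-values they were passed by 467 higher genes (2.33%) and 253 lower genes (1.26%). The study applied them to DESeq2 p-values, and with DESeq2 here 531 higher and 319 lower genes passed. In 4176 genes (20.9%) both IL-27+cabo tumors lay above both controls, and in 4283 (21.4%) both lay below. No gene is therefore said to have risen or fallen here, and counts of genes below refer to the unadjusted p unless DESeq2 is named. Counts against control at EOS stand beside the shares of 7.36% higher and 6.8% lower. An exact permutation test on 2 against 2 tumors cannot give a p below 0.333.

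**Figure D1:**
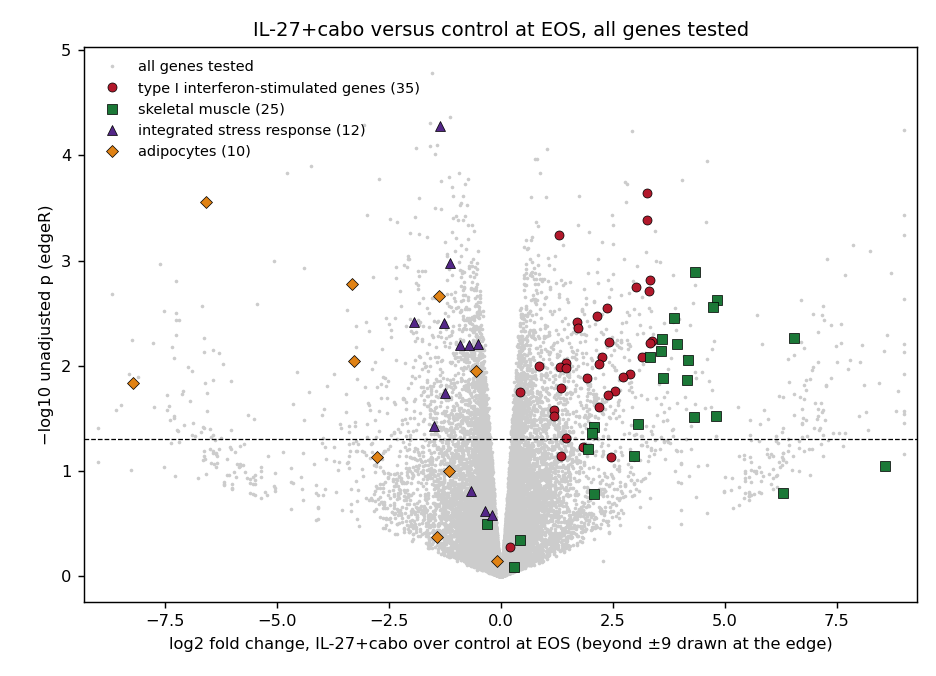
The log2 fold change of each gene tested, IL-27+cabo over control at EOS, is plotted against −log10 of its unadjusted edgeR p, with 35 type I interferon-stimulated genes as red points, 25 skeletal muscle genes as green squares, 12 integrated stress response genes as purple triangles, 10 adipocyte genes as orange diamonds and the dashed line at an unadjusted p of 0.05 (genes beyond the axis are drawn at its edge). All 35 interferon genes and 24 of the 25 muscle genes lie to the right of 0, with Eno3 at −0.30, and all 12 stress response genes and all 10 adipocyte genes lie to the left.

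The genes with the smallest p, none of which passed the adjusted test, were of several kinds on the higher side. Values are given as CPM in IL-27+cabo tumors 16 and 28, then in control tumors 13 and 9. Cd163, the hemoglobin scavenger receptor of macrophages, was 4.55 and 5.397 against 0.559 and 0.734 CPM, a log2 fold change of 2.94 ± 0.37 (SE), adjusted p = 0.136. The IL-27 alone tumors were at 0.528 and 0.598 CPM and the cabo alone tumors between the others at 3.14 and 1.98. Lyn, a Src family kinase of myeloid cells, was 94.02 and 95.4 against 42.7 and 50.5 CPM (log2 fold change 1.02 ± 0.14, adjusted p = 0.136). Ehd4, an endosomal trafficking protein, was 150.1 and 170.1 against 93.6 and 88.7 CPM, and Etnk1, an ethanolamine kinase, was 140.3 and 134 against 83.3 and 77.1, log2 fold changes of 0.81 and 0.77. In each of these genes both IL-27+cabo tumors lay above all 6 others. Gm49320, a transcript on chromosome 8 (GRCm38, 4238865 to 4251423, plus strand) that overlaps Map2k7 and Tgfbr3l, was 2.44 and 4.32 CPM against 0 in both controls, at least 78.7-fold higher with a floor of 3 counts per library, and its reads cannot be told apart from those of its neighbours unless strand was counted.

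Lower genes near the smallest p included an amino acid transporter and proteins of several other kinds. Nptx1, a secreted pentraxin, was 709.9 and 596 CPM against 1873 and 1913 (log2 fold change −1.54 ± 0.16, adjusted p = 0.136). Slc7a11, the cystine-glutamate exchanger, was 19.8 and 24.1 CPM against 59.03 and 53.1 (log2 fold change −1.35 ± 0.17, adjusted p = 0.136). Cyb5r1, a cytochrome b5 reductase, was 41.7 and 41.7 against 97.9 and 84.1 CPM, a log2 fold change of −1.13. In Nptx1 and Slc7a11 the cabo alone tumors (at 1125 and 1376 CPM and 33.1 and 42.2 CPM) lay between the IL-27+cabo tumors and the controls. The IL-27 alone tumors were at 1908 and 1579 CPM for Nptx1 and 67.6 and 66.2 for Slc7a11, the latter above both controls. Raet1d, a ligand of the NK cell receptor NKG2D, was 5.97 and 7.87 against 20.7 and 20.7 CPM (log2 fold change −1.58), and its reads can be shared with its paralogs. S100a7a, an S100 protein of epithelia, was 0.264 and 0.269 against 2.27 and 2.19 CPM, a difference at low level.

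Interferon-stimulated genes made up the largest block of higher genes among the lists. Of 36 type I interferon-stimulated genes, 35 passed the filter on low counts, and 31 of them were higher in IL-27+cabo at p under 0.05 and 0 lower, where 7.36% of all genes were higher. DESeq2 gave 22 of the 35 an adjusted p under 0.05. The median log2 fold change was 2.19, with a range from 0.20 to 3.38, beside a median of −0.003 over all genes tested. Both IL-27+cabo tumors lay above both controls in 33 of the 35 genes, where 20.9% of all genes did so. Averaged over the list, log2 CPM was 4.34 in IL-27+cabo tumor 16 and 5.74 in tumor 28, 4.18 and 3.21 in the cabo alone tumors, 2.27 and 2.90 in the IL-27 alone tumors, and 2.52 and 3.51 in the controls. Tumor 28 stood highest, and cabo alone tumor 19 lay just below tumor 16.

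The promoters of members are shown for the letters that interferon-driven STAT and IRF factors are known to bind. The core of the interferon-stimulated response element, which is GAAA, any 2 bases and GAAA again, was searched on both strands of the 250 bases before each RefSeq start. Its letters overlap the sites of interferon regulatory factors. It stood in 12 of the 28 listed genes with a promoter entry (42.9%) and in 936 of 27025 genes of the table (3.46%). The genes with a match were Isg15, Ifit1, Ifit3, Ifit3b, Oas1a, Oas1g, Oas3, Rsad2, Stat2, Trim30a, Bst2 and Slfn8, and no entry was found for 8 genes, Mx1 and Usp18 among them. A match describes the letters and not a bound site. Sequences are from RefSeq on GRCm38.p6, 5′ to 3′ on the strand of the gene, with the core or its reverse complement in capitals: Ifit3b at chr19:34607744-34607837 (plus strand), Ifit3 at chr19:34583348-34583441 (plus), Stat2 at chr10:128270251-128270310 (plus) and Oas3 at chr5:120777700-120777759 (minus).
Ifit3b: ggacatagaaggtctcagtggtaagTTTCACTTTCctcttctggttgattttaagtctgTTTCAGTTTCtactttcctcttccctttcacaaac
Ifit3: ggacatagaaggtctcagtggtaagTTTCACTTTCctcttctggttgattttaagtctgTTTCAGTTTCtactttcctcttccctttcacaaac
Stat2: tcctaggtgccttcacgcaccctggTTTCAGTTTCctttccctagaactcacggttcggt
Oas3: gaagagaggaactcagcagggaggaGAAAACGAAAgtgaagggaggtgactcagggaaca

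Ifit3b and Ifit3, antiviral proteins that bind foreign RNA, carried the core in 2 copies within the same 94 letters, and since the genes are near-identical copies their reads can be split between them. Ifit3b was 12.2 and 49.7 CPM in IL-27+cabo against 2.53 and 3.57 in control tumors (log2 fold change 3.34 ± 0.69, adjusted p = 0.178), and Ifit3 was 27.5 and 108 against 5.45 and 8.31 (log2 fold change 3.30). Stat2, the partner of the type I interferon STAT complex, was 35.5 and 69.9 CPM against 12.96 and 18.96 (log2 fold change 1.72 ± 0.43, adjusted p = 0.195). The groups did not overlap in these 3 genes, and tumor 28 was the higher of the pair in each. Oas3, a sensor that starts RNA decay by RNase L, was 12.9 and 56.2 CPM against 2.098 and 4.81 (log2 fold change 3.32 ± 0.88, adjusted p = 0.202).

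Usp18, the protease that removes Isg15 and dampens interferon receptors, was 13.95 and 31.7 CPM in the IL-27+cabo tumors, 8.12 and 4.04 in the cabo alone tumors, 1.06 and 1.297 in the IL-27 alone tumors and 2.00 and 2.72 in the controls. Both IL-27+cabo tumors lay above all 6 others, and the log2 fold change over control was 3.27 ± 0.50 (adjusted p = 0.142, DESeq2 adjusted p = 2.56e-10). Mx1, an antiviral GTPase, was 10.3 and 25.8 CPM against 1.75 and 2.03 (log2 fold change 3.26 ± 0.54, adjusted p = 0.152). Eif2ak2, the double-stranded RNA kinase PKR, was 82.2 and 115 CPM against 44.2 and 36.1 (log2 fold change 1.30 ± 0.23), a smaller but tighter difference. Cmpk2, a mitochondrial nucleotide kinase, was 18.3 and 69.2 CPM against 4.59 and 6.18, a log2 fold change of 3.02. Irf7, the factor that amplifies the interferon response, was 44.9 and 148 CPM against 3.30 and 15.2, and control 9 was the higher control. The RNA sensors Ddx58 and Ifih1 had log2 fold changes of 1.71 and 1.46. The 4 members with p over 0.05 were Oas2, Rsad2, Ifi27l2a and Isg20, and Rsad2 was 30.6 and 78.9 CPM against 4.699 and 25.8, so control 9 lay close to tumor 16.

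**Figure D2:**
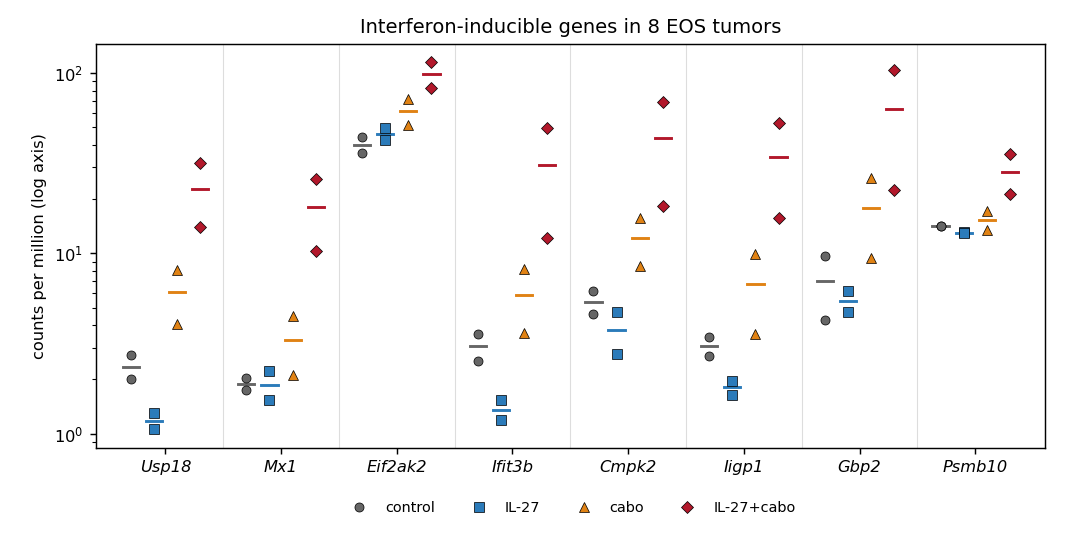
CPM (log axis) of 8 interferon-inducible genes in the 8 EOS tumors, 1 point per tumor and a bar at each group's mean, for control (grey circles), IL-27 (blue squares), cabo (orange triangles) and IL-27+cabo (red diamonds). Both IL-27+cabo tumors lie above both controls in every panel, and for Usp18 they are at 13.95 and 31.7 CPM against 2.00 and 2.72.

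Genes more typical of interferon gamma were also higher than in the controls, with a mean log2 CPM of 2.66 and 4.25 in IL-27+cabo tumors 16 and 28, 2.72 and 1.76 with cabo alone, 0.64 and 1.27 with IL-27 alone and 1.05 and 2.00 in the controls, so tumor 16 lay just below cabo alone tumor 19. Of 24 tested, 16 were higher at p under 0.05 and 0 lower, and the median of the list was 2.07 on the log2 scale. Iigp1, an immunity-related GTPase, was 15.7 and 52.5 CPM against 2.699 and 3.45 (log2 fold change 3.47 ± 0.67, adjusted p = 0.178). The guanylate-binding protein Gbp2 was 22.4 and 105 CPM against 4.29 and 9.69, and Gbp7 24.1 and 63.5 against 5.82 and 10.5, log2 fold changes of 3.18 and 2.43, with no overlap between groups. Irf1, the first factor in the interferon gamma response, was 35.02 and 80.5 CPM against 33.8 and 44.7 and overlapped between the groups (adjusted p = 0.509). The T-cell attracting chemokine Cxcl9 was 5.18 and 21.3 CPM against 0.545 and 3.01 (log2 fold change 2.90, adjusted p = 0.248), while Cxcl10 was 30.3 and 116 against 5.09 and 40.3 and overlapped. Ifng itself was at 0 and 0.0538 CPM in the IL-27+cabo tumors and 0.0559 and 0.0881 in the controls and was too low to be tested.

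The interferon counts changed when single tumors were left out and when the muscle level was added to the model. Without IL-27+cabo tumor 28 the type I list had 13 of 35 genes at p under 0.05 and a median of 1.11, and without control 13 it had 14 and a median of 1.58. Without tumor 16 it had 34, and without control 9 it had 33. With the muscle level of each tumor as a covariate, which takes 1 of the 4 residual degrees of freedom, it had 13, and the median was nearly the same at 2.17. In that model the count of higher genes over all genes went from 1473 to 500. The interferon gamma list had 8 genes without tumor 28, 10 without control 13 and 9 with the muscle covariate, with medians of 1.25, 1.88 and 2.19. The medians of both lists were positive in each of these fits. With all tumors, 23 of 24 interferon gamma genes had a positive log2 fold change, and the lowest was −1.62.

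Antigen presentation and innate sensing genes were higher in smaller numbers. Of 20 genes of the MHC class I pathway, 6 were higher at p under 0.05 and 0 lower (median log2 fold change 0.80), where 7.36% of all genes were higher. Psmb10, an immunoproteasome subunit, was 21.2 and 35.5 CPM against 14.3 and 14.3 (log2 fold change 0.99 ± 0.26, adjusted p = 0.199), and Erap1, which trims peptides for class I, was 25.5 and 53.1 against 15.5 and 17.5 (log2 fold change 1.25). Tap1, the peptide transporter, was 16.5 and 47.6 CPM against 4.195 and 11.2, and Nlrc5, the class I transactivator, 6.82 and 22.5 against 5.52 and 4.403. The class I chains themselves overlapped between the groups, as H2-K1 was 129 and 328 CPM against 98.2 and 167 and B2m 295 and 629.9 against 262 and 368, with p of 0.164 and 0.143. Of 13 class II genes, 2 were higher (median 1.02), where 7.36% of all genes were. The class II median was −0.07 without tumor 28, 0.59 without control 13, 1.44 without control 9 and 1.58 without tumor 16. The class I count was 2 without tumor 28, with 1 lower and a median of 0.23, 3 without control 13 at a median of 0.53, and 14 without tumor 16 at a median of 1.25.

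Among 20 pattern recognition receptors and adaptors, 12 were higher at p under 0.05 and 0 lower, with a median log2 fold change of 0.92. Tlr3, the endosomal receptor for double-stranded RNA, was 11.4 and 33.5 CPM against 5.75 and 6.37 (log2 fold change 1.89 ± 0.50, adjusted p = 0.201). Tlr9, which senses DNA, was 4.79 and 21.7 CPM against 1.34 and 1.75, a log2 fold change of 3.10, and for the DNA sensor Ifi204 it was 2.67. The adaptors Myd88 and Tmem173 (STING) differed less, with log2 fold changes of 0.56 and 0.62, but without overlap. Of 14 complement genes 4 were higher and 0 lower, where 7.36% of all genes were higher. Serping1, the C1 inhibitor, was 9.08 and 20.1 CPM against 1.496 and 2.69, factor B (Cfb) 14.1 and 75.3 against 5.398 and 6.81, and C4b 6.04 and 25.2 against 3.76 and 2.66. Tumor 28 held the highest value of each complement gene named. Without tumor 28 the receptor list had 5 genes higher and 1 lower, at a median of 0.37, and the complement list, whose median was 1.04 with all tumors, had 1 higher and 2 lower at a median of 0.71. With the muscle covariate they had 3 and 0 higher, at medians of 1.02 and 1.38.

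Macrophage genes were uneven. Of 20, 6 were higher at p under 0.05 and 2 lower, where 7.36% of all genes were higher and 6.8% lower. The median log2 fold change was 1.00. Mrc1, the mannose receptor CD206, was 114 and 114 CPM in the IL-27+cabo tumors, 94.1 and 86.6 with cabo alone, 24.8 and 78.1 with IL-27 alone and 26.7 and 40.2 in the controls (log2 fold change 1.77 ± 0.47, adjusted p = 0.201). Fcgr1, the high-affinity IgG receptor, was 15.8 and 40.6 CPM against 3.02 and 6.78. The general markers Adgre1 and Csf1r had p over 0.05, and Csf1r overlapped between the groups at 131 and 244 CPM against 73.8 and 166. Gpnmb, a glycoprotein of lipid-laden macrophages and osteoclasts, was lower at 40.8 and 22.8 CPM against 112 and 77.96 (log2 fold change −1.58 ± 0.45). Ccl12, a monocyte chemokine, was 8.14 and 13.5 CPM against 0.867 and 1.91 (log2 fold change 2.96, adjusted p = 0.178), although only 2 of 22 chemokines were higher and 1 lower. The chemokine list's mean log2 CPM was 1.819 and 1.915 in the IL-27+cabo tumors, between control 13 at 0.251 and control 9 at 2.101. Without tumor 28 or without control 13 the count of higher macrophage genes was 3, at medians of 0.51 and 0.72, and with the muscle covariate 1, at a median of 1.17. In bulk tumors, fewer cells of a type and less RNA per cell cannot be told apart.

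T-cell genes were at low levels. Of 20 tested, 2 were lower at p under 0.05 and 0 higher, where 6.8% of all genes were lower, so the count was near that of genes at large. Their median log2 fold change was −0.86, or −0.48 without tumor 16, and in 11 of the 20 both IL-27+cabo tumors lay below both controls, where 21.4% of all genes did so. With cabo alone 9 of the 20 were lower than in the same controls, where 4.36% of all genes were, and their median was −0.997 on the log2 scale. Cd247, the CD3 zeta chain, was 0.111 and 0.162 CPM against 1.19 and 0.983 (log2 fold change −2.98 ± 0.49, adjusted p = 0.152). Cd3e was 0.0833 and 0.565 CPM against 1.61 and 2.13, and with cabo alone it was 0.361 and 0.175. The summed level of the list was 27.6 and 44.5 CPM in the IL-27+cabo tumors, 48.1 and 51.7 in the controls, 50.0 and 42.8 with cabo alone and 47.3 and 62.1 with IL-27 alone. Of 16 genes of CD8, cytotoxic and NK cells, 2 were higher and 1 lower, and Gzmb was 12.5 and 18.5 CPM against 4.11 and 11.3 (adjusted p = 0.494). That list's median log2 fold change was 1.016, but 0.439 without tumor 28, 0.356 without control 13 and 1.645 without control 9. Among 14 regulatory and checkpoint genes 1 was higher and 3 lower. Lgals9, a galectin that binds TIM-3, was 79.7 and 155 CPM against 23.5 and 41.1 (log2 fold change 1.87 ± 0.44, adjusted p = 0.191), and the T-cell inhibitor Vtcn1 (B7-H4) was 5.05 and 4.94 against 21.3 and 10.8 (log2 fold change −1.68 ± 0.34). Cd274 (PD-L1) was 14.02 and 20.2 CPM against 9.68 and 20.8 and overlapped. Of 14 B and plasma cell genes, 2 were higher and 2 lower, and of 12 dendritic cell genes 3 were higher. The dendritic cell median was 0.935 on the log2 scale, but −0.007 without tumor 28, 0.553 without control 13 and 1.004 without control 9. Of 7 mast cell genes 3 were higher, and 1 without tumor 28, where Cpa3 was 3.43 CPM against 0.486 in tumor 16 and 0.0559 and 0.279 in the controls.

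**Figure D3:**
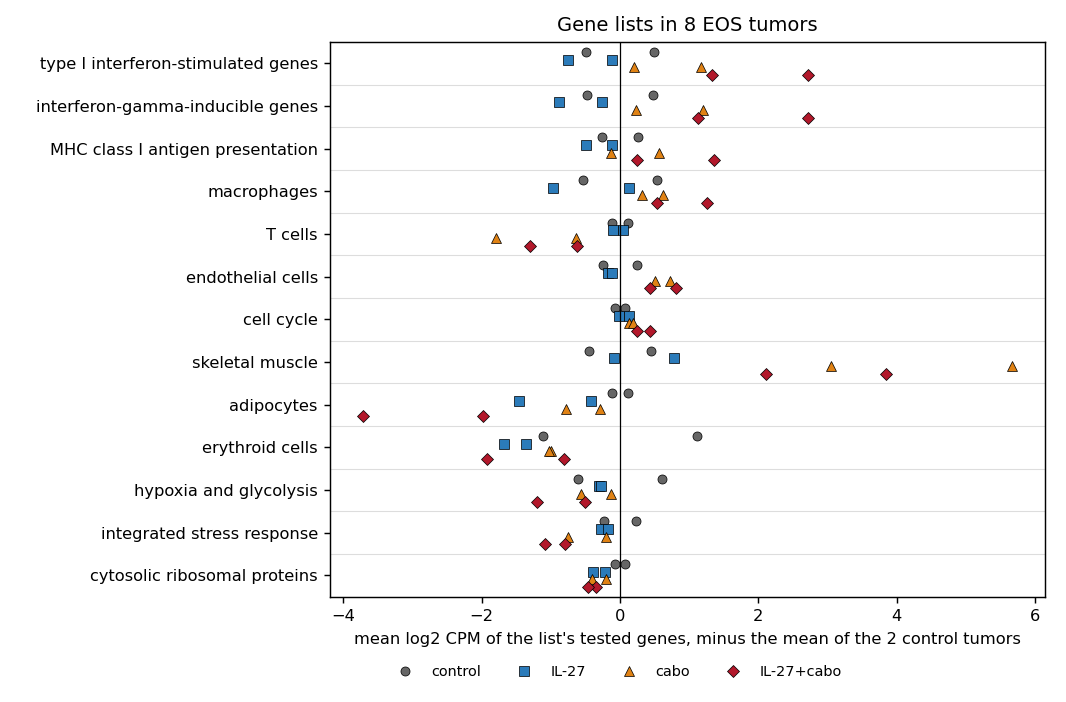
Mean log2 CPM of 13 gene lists in each of the 8 EOS tumors, minus the mean of the 2 control tumors, with control in grey, IL-27 in blue, cabo in orange and IL-27+cabo in red. For type I interferon-stimulated genes the IL-27+cabo tumors are at 4.34 and 5.74 before subtraction and the controls at 2.52 and 3.51.

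Markers of other tissues differed between the groups as well. Of 25 skeletal muscle genes, 17 were higher in IL-27+cabo at p under 0.05 and 0 lower, and their median was 3.63 on the log2 scale. The summed level of the 26 listed genes was 352.9 and 174.7 CPM in the IL-27+cabo tumors, 1271 and 211.8 with cabo alone, 72.9 and 73.9 with IL-27 alone and 96.9 and 53.9 in the controls. Acta1, skeletal alpha actin, was 60.6 and 28.2 CPM against 2.69 and 1.702 (log2 fold change 4.34 ± 0.87, adjusted p = 0.178), and Myh4, a fast myosin, 42.8 and 22.6 against 1.48 and 0.822. Trim63, the ubiquitin ligase MuRF1, was 2.94 and 2.14 CPM and at 0 in both controls, at least 59.1-fold higher with a floor of 3 counts per library. Of the defining muscle markers, Mb was at 0 in control 9 and the others were above 0 in all tumors. With cabo alone 22 of the 25 were higher than in the same controls (median 5.37), where 4.54% of all genes were. Compared with cabo alone, 0 of the 25 were higher or lower at p under 0.05, and all 25 fitted differences were below 0 (median −1.60). Without tumor 16 the count over control was 12 (median 2.11), and without control 9 it was 10. Ly6a, a marker of stromal progenitors that interferon also induces, and Mfap5, a microfibril protein, were higher among 16 fibroblast genes, at 19.3 and 60.1 CPM against 6.85 and 8.23 and 3.35 and 5.46 against 0.378 and 0.6897, while 3 of the 16 in all were higher and 1 lower. The part of muscle content in the interferon and other differences was not tested beyond the covariate.

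Adipocyte genes were lower. Of 10 tested, 6 were lower at p under 0.05 and 0 higher, where 6.8% of all genes were lower, and DESeq2 gave 5 an adjusted p under 0.05. The median log2 fold change was −2.09, and 8 of the 10 did not overlap between the groups, where 21.4% of all genes were lower without overlap. Lep, the hormone leptin, had 0 and 0.0538 CPM in the IL-27+cabo tumors against 3.52 and 2.04 in the controls, 2.35 and 7.45 with cabo alone and 1.43 and 2.303 with IL-27 alone (adjusted p = 0.145), and tumor 16 had no count. Fabp4, the adipocyte fatty acid-binding protein, was 10.9 and 17.99 CPM against 28.1 and 47.6 (log2 fold change −1.39 ± 0.30, adjusted p = 0.183). Plin1, which coats lipid droplets, was 0.125 and 0.431 CPM against 2.38 and 3.24, and Adipoq 0 and 1.23 against 3.75 and 4.59. The summed level of the list was 53.1 and 56.0 CPM in the IL-27+cabo tumors, 89.0 and 96.7 with cabo alone, 86.9 and 59.2 with IL-27 alone and 106.0 and 121.7 in the controls, and of the defining markers Adipoq was at 0 in tumor 16. Without tumor 16 or without tumor 28 the count was 8, at medians of −2.04 and −5.11 (the latter with tumor 16 alone, where Adipoq, Lep, Retn and Cfd had no count, so it is no measure of size), and with the muscle covariate 2, at a median of −1.35. Erythroid genes were lower in 5 of 7, but control 9 alone carried them, with Hba-a1 at 126 CPM there against 29.02 in control 13 and 22.9 and 16.7 in the IL-27+cabo tumors, and without control 9 the count was 0. The summed level of the list was 492.8 CPM in control 9, 86.0 in control 13 and 85.9 and 57.7 in the IL-27+cabo tumors.

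Genes of the integrated stress response were lower together. Of 12 tested, 9 were lower in IL-27+cabo at p under 0.05 and 0 higher, and DESeq2 gave 7 an adjusted p under 0.05. All 12 fitted log2 fold changes were below 0, with a median of −1.02, and 10 of the 12 did not overlap between groups, where 21.4% of all genes were lower without overlap. Averaged over the list, log2 CPM was 5.85 and 5.56 in the IL-27+cabo tumors, 5.89 and 6.44 with cabo alone, 6.37 and 6.46 with IL-27 alone, and 6.41 and 6.87 in the controls. Without any 1 of the 4 tumors compared, between 7 and 9 genes had a p under 0.05, and with the muscle covariate 2 did, at a median of −0.66.

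The promoters of these genes are shown for the element that Atf4 is known to bind with C/EBP partners, whose core was taken as TGATGNAA and searched on both strands of the same 250 bases. The core overlaps sites of C/EBP and of other ATF factors, and it stood in 5 of the 12 genes (41.7%), namely Atf3, Asns, Chac1, Vldlr and Slc7a11, and in 1056 of 27025 genes of the table (3.91%). Slc7a11 held it on both strands. The sequences are from RefSeq on GRCm38.p6, on the strand of the gene, with the core or its reverse complement in capitals: Slc7a11 at chr3:50443628-50443704 (minus strand), Chac1 at chr2:119351024-119351081 (plus) and Atf3 at chr1:191183411-191183468 (minus).
Slc7a11: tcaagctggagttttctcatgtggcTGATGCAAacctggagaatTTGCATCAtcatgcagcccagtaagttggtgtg
Chac1: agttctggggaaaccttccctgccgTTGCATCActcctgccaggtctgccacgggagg
Atf3: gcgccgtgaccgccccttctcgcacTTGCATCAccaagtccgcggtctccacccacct

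Slc7a11, described above, imports the cystine needed for glutathione. Chac1, which breaks glutathione down, was 10.7 and 6.53 CPM against 20.7 and 19.9 (log2 fold change −1.23 ± 0.41, adjusted p = 0.264), and the groups did not overlap. Atf3, a stress-induced repressor, was 10.9 and 8.68 CPM against 11.2 and 43.9, and control 9 was the high sample. Atf4, the master factor, was 228 and 220.3 CPM against 327 and 512 (log2 fold change −0.90 ± 0.24, adjusted p = 0.202). Ddit3 (CHOP), a pro-apoptotic partner, was 37.1 and 18.4 CPM against 65.9 and 145 (log2 fold change −1.93 ± 0.47), and Trib3, its target, 29.4 and 18.6 against 55.2 and 59.6 (log2 fold change −1.26). Vldlr, a lipoprotein receptor, was 38.2 and 29.03 CPM against 60.03 and 86.8 (log2 fold change −1.13 ± 0.22, adjusted p = 0.178). In Vldlr and Trib3 both IL-27+cabo tumors lay below both controls and both IL-27 alone tumors. The amino acid synthesis genes Asns and Phgdh differed less, with log2 fold changes of −0.70 and −0.52.

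Genes of hypoxia and glycolysis were also lower, more so against control 9. Of 18, 6 were lower at p under 0.05 and 0 higher, where 6.8% of all genes were lower. All 18 fitted values were below 0, and their median was −0.77. P4ha1, a collagen prolyl hydroxylase, was 327 and 250.3 CPM against 553 and 655 (log2 fold change −1.06 ± 0.16, adjusted p = 0.142), and both IL-27+cabo tumors were the lowest of the 8. Egln3, an oxygen-sensing hydroxylase, was 134 and 93.98 CPM against 190.0 and 389.5 (log2 fold change −1.35), and Ndrg1 222 and 103 against 331 and 823 (log2 fold change −1.83). The glucose transporter Slc2a1 was 302 and 143 CPM against 262 and 926, so control 13 lay within the IL-27+cabo tumors. Without control 9 the list had 2 genes and a median of −0.14, and without control 13 it had 17.

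Cytosolic ribosomal protein genes were slightly lower, with 13 of 18 lower at p under 0.05 and 0 higher and a median log2 fold change of −0.42. Rplp1 was 243 and 227 CPM against 332 and 359 (log2 fold change −0.55 ± 0.13). With trends of GC content and length taken out of every library the count was 7, with the muscle covariate 0 (median −0.24) and without control 9 it was 4. The median log2 fold change of all genes went from 0.05 in the lowest of 4 bins of genes by GC content to −0.04 in the highest.

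**Figure D4:**
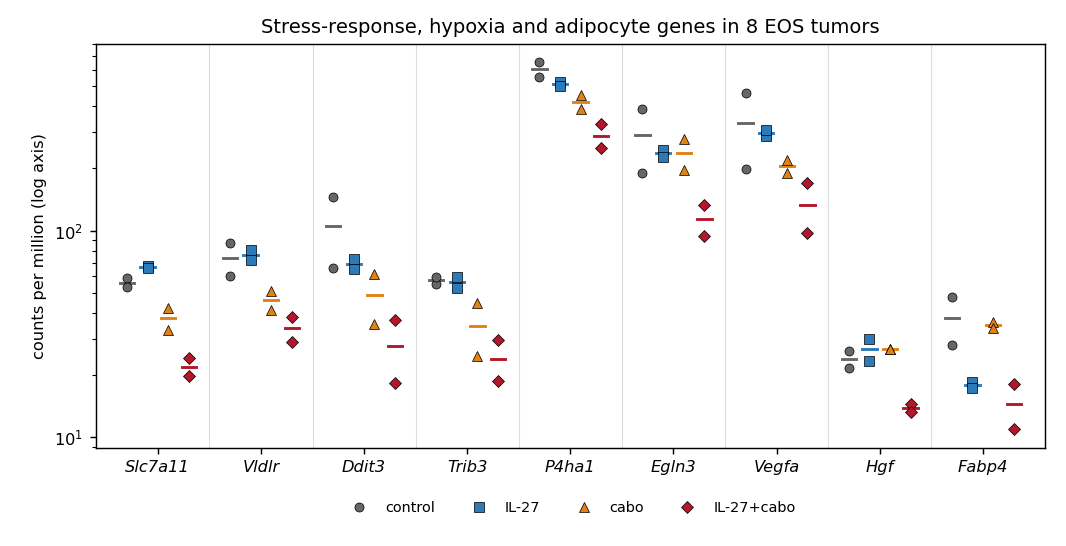
CPM (log axis) of 9 genes of the stress response, hypoxia, growth factor and adipocyte lists in the 8 EOS tumors, 1 point per tumor and a bar at each group's mean, for control (grey circles), IL-27 (blue squares), cabo (orange triangles) and IL-27+cabo (red diamonds). Both IL-27+cabo tumors lie below both controls in every panel, for Slc7a11 at 19.8 and 24.1 CPM against 59.03 and 53.1.

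Proliferation genes were higher by small amounts. Of 22 cell cycle genes, 8 were higher at p under 0.05 and 0 lower, where 7.36% of all genes were higher. The median of the list was 0.35. Both IL-27+cabo tumors lay above both controls in 15 of the 22, where 20.9% of all genes did so. Kif11, the mitotic kinesin Eg5, was 166 and 144 CPM against 95.1 and 111 (log2 fold change 0.59 ± 0.12, adjusted p = 0.178), and Mki67, the Ki-67 antigen, 332 and 297 against 182 and 222 (log2 fold change 0.64 ± 0.16). Cenpf and cyclin B1 (Ccnb1) had log2 fold changes of 0.79 and 0.55. Ccnd1, cyclin D1, was 739 and 693 CPM against 493 and 474 (log2 fold change 0.57 ± 0.11), although of 16 genes of RAS and MAPK output only 1 was higher and 1 lower. The cell cycle count was 5 without control 13 (median 0.22), 14 without tumor 16 and 7 with the muscle covariate (median 0.54). Matrix and bone genes differed little as groups, with 1 of 16 metalloproteinases and inhibitors, 3 of 18 osteoclast genes and 1 of 14 osteoblast genes lower and 0 higher. Spp1, osteopontin, was 1037 and 802 CPM against 1658 and 2292 (log2 fold change −1.10 ± 0.25, adjusted p = 0.191).

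The drug's targets and the IL-27 genes were read whatever their p. Met, the hepatocyte growth factor receptor, was 64.6 and 117 CPM against 63.9 and 71.98 (log2 fold change 0.42 ± 0.24, adjusted p = 0.482) and overlapped, and without tumor 28 its log2 fold change was −0.07. Its ligand Hgf was 14.4 and 13.2 CPM against 26.1 and 21.5 (log2 fold change −0.79 ± 0.18, adjusted p = 0.191), and both IL-27+cabo tumors lay below all 6 others. The angiogenic ligand Vegfa was 170.3 and 97.1 CPM against 199.9 and 464 (log2 fold change −1.31 ± 0.40, adjusted p = 0.234). Kdr, its main receptor, was 28.6 and 51.1 CPM against 20.2 and 17.6 (log2 fold change 1.08 ± 0.30, adjusted p = 0.207), whereas Flt1 was 56.6 and 44.2 against 57.8 and 113 (log2 fold change −0.76 ± 0.31) and Flt4 differed by 0.35 on the log2 scale (adjusted p = 0.421). Gas6, the ligand of Axl and Mertk, was 9.55 and 19.9 CPM against 6.21 and 3.302 (log2 fold change 1.63 ± 0.46). Axl, Mertk, Kit, Ret and Flt3 had log2 fold changes of 0.31, 0.45, −0.29, 0.11 and 0.21, each with p over 0.05. Of the 21 targets and ligands 2 were higher and 5 lower, where 7.36% of all genes were higher and 6.8% lower.

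The transcript of Il27 itself was at 0 in both IL-27+cabo tumors and reached at most 0.117 CPM in the other EOS tumors. The plasmid was given to muscle, and whether its IL-27 message would map to this gene was not tested. Ebi3 was 2.21 and 3.41 CPM against 0.951 and 1.12 (log2 fold change 1.44 ± 0.57, adjusted p = 0.318). The receptor Il27ra was 3.401 and 4.79 CPM against 3.64 and 3.89, and its partner Il6st 168 and 189 against 176 and 174, with p of 0.673 and 0.8. Socs3, a common STAT3 target, was 40.3 and 51.5 CPM against 38.8 and 69.2 and overlapped. Of 13 genes of IL-27 signaling, 1 was higher at p under 0.05 and 0 lower, near the 7.36% of all genes that were higher.

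Endothelial genes were higher rather than lower at EOS. Of 20, 8 were higher at p under 0.05 and 1 lower (Flt1), where 7.36% of all genes were higher and 6.8% lower. The median was 0.61 on the log2 scale, and DESeq2 gave 4 an adjusted p under 0.05. Eng, endoglin, was 39.2 and 57.1 CPM against 25.5 and 30.4 (log2 fold change 0.79 ± 0.21), and Emcn, a vessel sialomucin, 18.99 and 32.2 against 12.5 and 16.8 (log2 fold change 0.80, adjusted p = 0.273). Among 19 genes of tip cells and lymphatic endothelium 3 were higher and 3 lower. Aplnr, the apelin receptor of vessel sprouts, was 10.4 and 41.4 CPM against 1.496 and 2.92 and 14.8 and 8.37 with cabo alone (log2 fold change over control 3.55 ± 0.69, adjusted p = 0.178), and Angpt2, which loosens vessels, was 22.7 and 13.9 against 34.3 and 43.03 (log2 fold change −1.08 ± 0.27). The endothelial count was 2 without tumor 28 (median 0.37), 4 without control 13 (median 0.36), 13 without tumor 16 and 3 with the muscle covariate (median 0.85).

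IL-27+cabo tumors were also compared with the tumors of each single treatment. With edgeR, 0 genes (0%) had an adjusted p under 0.05 against cabo alone. An unadjusted p under 0.05 was found for 1098 (5.48%), 486 higher (2.43%) and 612 lower (3.06%), and DESeq2 called 109. That 5.48% is close to the share that a p limit of 0.05 gives when nothing differs. Against IL-27 alone 0 genes (0%) had an adjusted p under 0.05, 2779 (13.9%) had an unadjusted p under 0.05, 1518 higher (7.58%) and 1261 lower (6.3%), and DESeq2 called 912. Of the 35 type I interferon genes, 19 were higher than with cabo alone (median log2 difference 1.44) and 34 higher than with IL-27 alone (median 2.83), and none was lower in either. By the list's mean log2 CPM, IL-27+cabo tumor 16 was at 4.34 beside 4.18 in cabo alone tumor 19, and tumor 28 was at 5.74. Against the same controls, which the 3 comparisons share, 31 genes were higher in IL-27+cabo, 2 with cabo alone (median 0.62, against 4.54% of all genes) and 0 with IL-27 alone (median −0.52, where 1.57% were). Usp18 was higher than with cabo alone by 1.91 on the log2 scale (adjusted p = 0.839) and Mx1 by 2.46 (adjusted p = 0.791). The adipocyte genes were lower than with cabo alone in 5 of 10 (median −1.76, where 3.06% of all genes were lower), and endothelial genes were higher than with IL-27 alone in 13 of 20 (median 1.00). Against cabo alone 0 of the 20 endothelial genes were higher and 2 lower (median 0.14), and over control the list had a median of 0.61 with cabo alone (7 higher, 0 lower) as with both treatments.

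Genes with the smallest p against cabo alone, none past the adjusted limit, included Nuak2, a stress-related kinase, at 12.4 and 10.5 CPM against 5.36 and 4.64 (log2 difference 1.20), together with Etnk1 and Mx1. On the lower side stood the linker histone Hist1h1c, at 49.8 and 51.9 CPM against 136 and 142 (log2 difference −1.45, adjusted p = 0.313), Lep, and the decoy receptor Tnfrsf23, at 56.5 and 77.8 against 148 and 150.2. For Hist1h1c the controls, at 68.6 and 87.1 CPM, lay between. Against IL-27 alone, Msln, mesothelin, was 117 and 123 CPM against 43.6 and 43.7 (log2 difference 1.46, adjusted p = 0.0829), beside Cd163 and Usp18. Vill, a villin-like protein, was 6.76 and 8.196 CPM against 27.1 and 36.1 (log2 difference −2.08, adjusted p = 0.0829), beside Slc7a11 and Nptx1.

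Whether the difference seen with both treatments departed from the sum of both single differences on the log2 scale was tested as an interaction. With edgeR 0 genes (0%) had an adjusted p under 0.05. An unadjusted p under 0.05 was found for 1148 (5.73%), 491 higher (2.45%) and 657 lower (3.28%), and DESeq2 called 100. The 5.73% is also close to the share expected at that limit when nothing differs. Of the 35 type I interferon genes 18 had an unadjusted p under 0.05, all above the sum, with a median interaction of 2.01 on the log2 scale. Of 24 interferon gamma genes 10 did (median 2.05). The type I list's mean log2 CPM was 4.34 in IL-27+cabo tumor 16, 5.74 in tumor 28, and 4.18 and 3.21 with cabo alone. It was 2.27 and 2.90 with IL-27 alone, and 2.52 and 3.51 in the controls. How far tumor 28 alone carried the interaction of the list was not tested. For Usp18 the interaction was 2.91 (adjusted p = 0.704), with differences from control of 1.37 with cabo alone and 3.27 with both, and one below 0 with IL-27 alone. The genes with the smallest p below the sum were Pde1a, Aldh1a3 and Lgi2. Aldh1a3, a retinoic acid-forming enzyme, was 9.22 and 7.07 CPM with both treatments and 6.28 and 10.2 in the controls but 16.6 and 22.4 with cabo alone and 23.9 and 28.8 with IL-27 alone, an interaction of −2.94 on the log2 scale (adjusted p = 0.616). Pde1a, a cyclic nucleotide phosphodiesterase, was 25.7 and 21.4 CPM with both, 43.6 and 39.1 with cabo alone, 51.5 and 46.4 with IL-27 alone and 29.97 and 28.3 in the controls. Above the sum, after Saa3 and Myo15b, which were at 0 in both IL-27 alone tumors, stood the tight-junction gene Cldn1, at 2.804 and 1.58 CPM with both, 0.333 and 0.5396 with cabo alone, 0.728 and 0.904 with IL-27 alone and 1.59 and 3.61 in the controls.

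The same comparison at day 14, when cabo dosing was ending, has its own 3 IL-27+cabo tumors (20, 22 and 24) and 3 controls (3, 5 and 7). In a model over the 20 intratibial tumors edgeR gave 96 of 21563 genes (0.445%) an adjusted p under 0.05 at day 14. That count was 26 without day 14 control 3, 33 without control 5, 44 without control 7, 416 without IL-27+cabo tumor 22, 11 with the muscle covariate and 670 with DESeq2. The change with IL-27+cabo differed between EOS and day 14 in 17 genes (0.0788%) with an adjusted p under 0.05, and DESeq2 called 204. In all, 15 of these had a more positive change at EOS, and Lrrc39 and Gm37829 a more negative one. Flt4, Dll4, Kdr and Emcn are members of the vascular lists.

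Flt4, the lymphatic VEGF receptor, was 18.6 and 19.6 CPM in IL-27+cabo and 15.4 and 14.3 in control tumors at EOS but 1.11, 1.67 and 1.97 in IL-27+cabo and 17.3, 26.4 and 15.6 in controls at day 14, a difference of changes of 4.00 ± 0.42 on the log2 scale (adjusted p = 0.000581). At day 14 the groups were far apart, and at EOS they were close. Dll4, the Notch ligand of tip cells, was 16.8 and 18.8 CPM against 8.73 and 17.7 at EOS and 0.899, 1.29 and 0.873 against 11.99, 12.1 and 13.2 at day 14 (difference 4.03 ± 0.45, adjusted p = 0.000812). Ephb1, an ephrin receptor, was 2.96 and 2.85 CPM against 1.197 and 1.79 at EOS and 0.206, 0.149 and 0.225 against 3.28, 3.32 and 2.67 at day 14 (difference 4.95 ± 0.50, adjusted p = 0.000581). Kdr fell at day 14 by 2.00 on the log2 scale and had a fitted log2 fold change of 1.09 at EOS, a difference of 3.09 ± 0.52 (adjusted p = 0.0343), and Emcn fell at day 14 by 2.31 and had 0.82 at EOS (difference 3.14, adjusted p = 0.00573). Lrrc39, a sarcomere-associated protein, went the other way, at 1.89 and 1.87 CPM against 4.597 and 3.61 at EOS and 4.999, 3.75 and 3.77 against 1.67, 1.58 and 1.45 at day 14 (difference −2.54, adjusted p = 0.0152). The next protein-coding genes by p with a more negative change, Synpo2 and Adssl1, did not pass the limit.

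**Figure D5:**
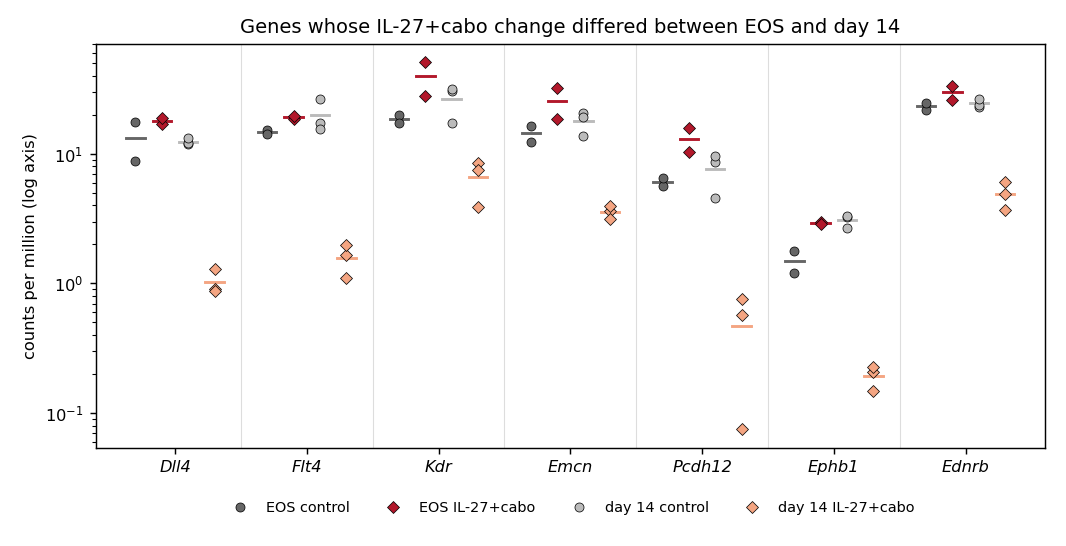
CPM (log axis) of 7 genes whose IL-27+cabo change differed between EOS and day 14, 1 point per tumor and a bar at each group's mean, for control and IL-27+cabo tumors at EOS and at day 14. At day 14 the IL-27+cabo tumors lie below the controls in all 7 genes plotted (Dll4, Flt4, Kdr, Emcn, Pcdh12, Ephb1 and Ednrb), for Flt4 at 1.11, 1.67 and 1.97 CPM against 17.3, 26.4 and 15.6, and at EOS they do not.

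As lists, 15 of 20 endothelial genes had a more positive change at EOS at an unadjusted p under 0.05, where 3.88% of all genes had, with a median difference of 1.70 on the log2 scale, and 11 of 19 tip cell and lymphatic genes did (median 2.28). Their median log2 fold changes were −1.03 and −1.71 at day 14 and 0.61 and 0.28 at EOS. Of 35 type I interferon genes 16 had a more positive change at EOS (median difference 1.49), and at day 14 itself 7 were higher at p under 0.05, where 10.4% of all genes were, with a median of 0.68. For Usp18 the log2 fold change was 0.51 at day 14, and at EOS 3.27. Skeletal muscle genes were higher at both times, in 25 of 25 at day 14 with a median of 5.29. T-cell genes were lower in 14 of 20 at day 14, where 4.15% of all genes were, with a median of −1.58. Ribosomal protein genes had a median of 1.09 at day 14 and −0.42 at EOS. Of the 18, 3 had a more negative change at EOS at an unadjusted p under 0.05 and 0 a more positive one, none past the adjusted limit. Over all genes, 1134 of 21563 had a more negative change at that p. The number of genes past the adjusted limit was 4 without EOS control 13, 9 without day 14 control 5, 10 without EOS control 9, 10 without day 14 control 3, 11 without each of IL-27 tumors 10 and 12 and cabo tumors 19 and 23, and 33 without day 14 IL-27+cabo tumor 20, in which 21269 genes were detected against 23739 and 24028 in the other 2.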

How the data were processed

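Of 24 samples, 20 were intratibial tumors, and 8 of those were taken at EOS. Total RNA of integrity 8 or above went into stranded poly(A) libraries, whose reads were trimmed (cutadapt) and aligned (HISAT2). The authors deposited raw counts, whole numbers per Ensembl gene, and the counting program is not given in the sources used here. Between 30.95% and 32.67% of the low values (1 to 20) of the EOS libraries were multiples of 4, so a count may not be 1 fragment. Of 55401 identifiers, GENCODE M21 (GRCm38) named 55141, joined by identifier, and 260 were left without a name. Groups came from the labels, which number the mice and say no more of the replicates, so p-values measure the spread between these tumors.

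The counts were tested with edgeR 4.0.16 in R 4.3.3 (filterByExpr, TMM, quasi-likelihood F test, two-sided, Benjamini-Hochberg adjustment). The 8 EOS tumors in 4 groups left 4 residual degrees of freedom, and the 20 intratibial tumors, used for the difference from day 14, left 12. CPM was scaled by effective library size, over the 20 tumors where day 14 is compared. Mean log2 CPM of lists used a prior count of 2. The steps were tested on simulated data. Alternatives were DESeq2 1.42.0, RLE size factors, no filter, only the 4 tumors compared, all 20 tumors, the muscle list as a covariate, GC content and length trends removed (splines with 5 degrees of freedom), counts divided by 4, other limits and leaving out each tumor. Leaving out day 14 tumors was chosen after seeing the data.

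Since no gene passed the adjusted limit at EOS, the genes named were the 5 protein-coding ones of smallest p in either direction without overlap, the 3 of smallest p in each list with the members called, the cabo targets with Il27, Ebi3, Il27ra and Hras, and the 3 of smallest p in either direction of the other tests. Further members, which show how a list varied, were named after their values were seen. The 39 lists, with 667 entries, and the comparisons were chosen with earlier results of these data known, so lists are described by counts and medians.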

Additional observations from a re-analysis of the deposited data

Results flagged for a closer look

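The change with IL-27+cabo differed between EOS and day 14 in 17 genes with an edgeR adjusted p under 0.05, by a test of the difference itself over the 20 intratibial tumors. The count was 4 without EOS control 13 and 33 without day 14 IL-27+cabo tumor 20. Of the genes named for it, the difference (EOS minus day 14, log2 scale) was 4.95 for Ephb1, 4.00 for Flt4, 4.03 for Dll4, 3.14 for Emcn, 3.09 for Kdr and −2.54 for Lrrc39. In the first 5 the day 14 IL-27+cabo tumors lay below their controls, and at EOS both IL-27+cabo tumors lay above the mean of the controls. Time after implantation, the end of cabo dosing and survival to the endpoint cannot be told apart.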

How the results depend on the processing

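The count of genes with an adjusted p under 0.05 between IL-27+cabo and control tumors was 0 with edgeR and 792 with DESeq2, and between 0 and 1 when single tumors were left out (1 without control 13). Against cabo alone it was 0, 109 with DESeq2 and 0 to 1 without single tumors, against IL-27 alone 0, 912 with DESeq2 and 0 to 117 (117 without tumor 16, 1 without IL-27 tumor 12), and for the interaction 0, 100 with DESeq2 and 0 to 1. With the study's limits the 467 higher and 253 lower genes became 212 and 380 with the muscle covariate, 954 and 779 with a fold change of at least 1.5 in place of the log2 limit, and 369 to 580 and 247 to 512 without single tumors (512 without tumor 16). The difference between EOS and day 14 held 17 genes, 204 with DESeq2 and 4 to 33 without single tumors (4 without EOS control 13, 33 without day 14 tumor 20). The cause of these shifts was not tested. Where leaving out a tumor left 1 in a group, that tumor was assumed to vary like the other groups.

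Some log2 fold changes over control, none past the adjusted limit, turned their sign or, for Siglech, went to 0. Over the fits without single tumors Il27ra went from −0.15 to 0.35, Met from −0.074 to 0.78, Flt3 from −0.27 to 0.95 and Siglech from 0 to 8.10, with the lowest value of Il27ra, Met and Siglech without tumor 28, and Flt3 was −0.021 there. Kit went from −0.70 to 0.29, S100a9 from −3.41 to 0.79, Il1a from −3.44 to 0.62 and Prdm1 from −2.59 to 0.64, each highest without control 9. Ret went from −0.34 without control 13 to 0.76 without control 9, and Krt8 from −0.16 without tumor 16 to 3.44 without tumor 28. Ret was −0.022 with GC and length trends removed, and Drp2 was −0.21 and Cldn4 −0.52 with the muscle covariate. Of the values of single genes against control under all alternatives, 2052 kept their direction and side of the limit, 70 became significant and 14 turned or went to 0. Of those for the difference between EOS and day 14, 234 kept both and 89 no longer passed the limit, in the same direction. Of list medians 823 moved by less than the spread between tumors and 35 by more. That spread came from the same tumors of each group, so leaving out a tumor could seldom move a median past it. The class II median went from 1.02 to −0.07 without tumor 28 and stayed within its spread of 1.206. These counts are therefore no test of stability. No paired analysis was possible because the groups compared share no mouse numbers.

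With 2 tumors a group, single tumors moved several lists. The median of type I interferon genes was 2.19 and was 1.11 without tumor 28, and that of hypoxia genes was −0.77 and was −0.14 without control 9. Harvest day was set by each animal and cannot be told apart from treatment. Muscle, fat and blood markers differed between the tumors.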

Other observations

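The counts below are of genes at an unadjusted edgeR p under 0.05 between IL-27+cabo and control tumors at EOS, where 7.36% of all genes were higher and 6.8% lower. Of 14 genes of muscle regeneration and wasting 8 were higher and 1 lower, and without tumor 16 or without control 9 only 3 were higher. Myod1, the myogenic factor, was 0.597 and 0.323 CPM in the IL-27+cabo tumors and at 0 in both controls, at least 10.7-fold higher with a floor of 3 counts per library. Of 11 tendon and synovium genes 4 were higher and 0 lower, and Prg4, lubricin, was 1.56 and 2.50 CPM against 0.252 and 0.235. The tendon marker Tnmd was at 0 in all EOS tumors but tumor 16. Of 15 inflammatory cytokine genes 0 were higher and 1 lower, Ptgs2, the prostaglandin synthase COX-2, at 44.2 and 26.9 CPM against 66.8 and 69.4. The mean log2 CPM of that list was 1.69 and 2.16 in IL-27+cabo tumors 16 and 28. It was 0.81 in control 13 and 2.86 in control 9, so the controls lay on either side.

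Among the other lists, 1 of 14 pericyte and smooth muscle genes was higher and 1 lower, 1 of 11 neutrophil and marrow granule genes was higher and 1 lower, 1 of 6 megakaryocyte genes was lower, 1 of 8 cartilage genes was lower, 1 of 10 nerve and Schwann cell genes was higher and 1 of 12 epithelial genes was higher. The marrow granule genes Mpo and Elane were at 0 in all 8 EOS tumors. The chemokines Cxcl2 and Ccl3 were high in control 9 alone, at 21.3 and 7.19 CPM there against 0.350 and 0.601 in control 13.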
